A study of Mus musculus with 6 samples.

Results

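The genes of the cytosolic ribosomal proteins were read out in LPS-stimulated mouse macrophages of 3 genotypes. Members were all rows of the deposited count table whose symbol names a ribosomal protein of the large subunit (Rpl) or the small subunit (Rps), including Rplp0, Rplp1, Rplp2 and Rpsa and leaving out the Rps6k kinases, with a summed count of at least 60 over the 6 libraries. They were thus selected on symbol and on their own summed counts. Of 23337 rows, 84 carried such a symbol and 78 reached the threshold, 46 of the large and 32 of the small subunit. That these genes are expressed here is therefore a description. All 78 passed the low-count filter of the test, which kept 12923 genes.

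The cells were bone marrow-derived macrophages, grown from mouse marrow with the growth factor M-CSF until day 7 and then treated for 8 h with the bacterial endotoxin LPS (E. coli 0111:B4) at 100 ng/ml. Each of the 3 groups had 2 libraries: wild type (WT), a knockout of Ch25h (Ch25hKO), which encodes the enzyme that makes the oxysterol 25-hydroxycholesterol, and a knockout of both liver X receptors (LXRdKO), the oxysterol-sensing nuclear receptors LXRα and LXRβ. The strain label was C57BL/6 for all, the groups shared the culture and the LPS exposure, and no unstimulated library was used here. No label says that libraries of 1 genotype stem from different mice or cultures, and the p-values below therefore measure library-to-library spread alone, perhaps only technical spread. Age and sex of the mice, how the alleles were deleted and in which cells are not stated in the labels.

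Ribosomal proteins assemble with ribosomal RNA in the nucleolus into a small subunit, which reads the mRNA, and a large subunit, which joins amino acids. Their mRNAs are among the most abundant of growing cells and belong to the class with a terminal oligopyrimidine (TOP) tract, a run of C and T at the 5′ end through which mTOR and LARP1 control their translation. Many of these genes carry small nucleolar RNAs (snoRNAs), guides for the modification of ribosomal RNA, in their introns, and several of the proteins have further roles outside the ribosome.

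Total counts lay between 41650513 and 45872964 per library. The targeted genes matched the labels: at most 57 counts of Ch25h were found per Ch25hKO library and at least 2509 in every other, and at most 42 counts of either LXR gene (Nr1h3, Nr1h2) per LXRdKO library and at least 710 in every other. All 9 measured macrophage markers were present, with a summed level of 17073 to 18580 CPM (counts per 1e+06 counts, on library sizes scaled by TMM) in WT and Ch25hKO and 20437 to 20621 in LXRdKO. For other cells, the sums covered only markers that passed the low-count filter. The 7 of 8 stromal markers that passed summed to 13.9 to 14.5 CPM in WT, 30.5 to 33.1 in Ch25hKO and 15.7 to 17.5 in LXRdKO. For 4 of 6 neutrophil markers the sums were 38.6 to 39.5, 51.7 to 54.5 and 18.8 to 19.5. For 7 of 8 dendritic cell markers they were 31.4 to 31.96, 16.1 to 16.7 and 24.7 to 27.1 CPM. For 2 of 6 mast cell and basophil markers they were 63.7 to 69.6, 49.2 to 52.2 and 51.8 to 54.4 CPM, nearly all of it Hdc. For 2 of 6 erythroid and megakaryocyte markers they were 22.9 to 23.4, 40.5 to 41.3 and 28.7 to 32.3 CPM. Of that list, Hbb-b1 and Hba-a1 had 0 counts in all libraries. B cell markers (2 of 5 genes) and T and NK cell markers (2 of 5 genes) summed to at most 0.900 and 3.53 CPM in any library. The ribosomal RNA precursor Rn45s took 1.26% to 1.30% of the counts in WT and Ch25hKO and 1.01% to 1.06% in LXRdKO. The part of these differences in the results below was not tested.

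Just inside the threshold lay Rpl39l, a copy of Rpl39 best known from the testis, with a summed count of 65, and after it Rps4y2 with 427. Just outside it lay Rps27 with 48, Rpl3l, the muscle form of Rpl3, with 46, Rpl34 with 27 and Rpl30 with 4, while Rpl26 and Rpl10l had no count. Rps27, Rpl34, Rpl30 and Rpl26 encode core ribosomal proteins with near-identical processed copies elsewhere in the genome, and reads that fit several copies can be lost or split in counting. How such reads were handled is not stated in the labels, so the levels of all members are uncertain to that extent.

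Mean levels over the 6 libraries ran from 0.247 to 393 CPM in the large subunit, with a median of 129, and from 1.63 to 434 CPM in the small subunit, with a median of 98.6. The highest means of the large subunit were those of Rpl10, a late-joining protein near the P site, Rpl24 at the subunit interface and Rpl7a, at 393, 333 and 302 CPM. In the small subunit they were those of Rps4x, Rps24 and Rps9, proteins of the early assembling body, at 434, 424 and 331 CPM. The lowest were Rpl39l at 0.247, Rpl22l1 at 24.997 and Rpl7l1 at 25.5 CPM, and Rps4y2 at 1.63, Rps27l at 22.3 and Rps21 at 47.3 CPM. Of the 3 lowest in each subunit, all but Rps21 are relatives of another member or of Rps27. Per kilobase of annotated transcript, which 77 of 78 members had, Rpl31 was highest at 521 CPM per kb, followed by Rps29 at 505, Rpl24 at 492 and Rpl10 at 491. Rpl39l at 0.450 and Rpl7l1 at 19.5 CPM per kb were lowest on that scale. Levels per kilobase depend on the transcript chosen for the length. Members lay on 19 chromosomes.

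The libraries of a group agreed closely on these genes. The median absolute difference between the 2 libraries of a group was 0.05 (log2) in WT, 0.04 in Ch25hKO and 0.03 in LXRdKO, and it was under 0.1 for 65, 72 and 74 of the 78 members. The medians are smaller than the fold change of every member called below.

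Summed over their members, large subunit genes took 0.617% and 0.644% of all counts in the WT libraries. Their share was 0.697% and 0.7001% in the Ch25hKO libraries and 0.655% and 0.648% in the LXRdKO libraries. For small subunit genes it was 0.442% and 0.455% in WT, 0.485% in each Ch25hKO library, and 0.461% and 0.456% in LXRdKO. Both Ch25hKO libraries lay above the other 4 in each subunit, and both LXRdKO libraries lay above both WT libraries and exceeded the higher WT library by less than the distance between the WT libraries. These are shares of unscaled totals with no test. On TMM-scaled library sizes, large subunit genes summed to a group mean of 6322 CPM in WT, 6788 in Ch25hKO and 6690 in LXRdKO. For small subunit genes the sums were 4495, 4714 and 4705 CPM. On that scale the knockouts lay closer to each other than to WT in both subunits. In bulk RNA, fewer cells of a type and less RNA per cell cannot be told apart.

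**Figure D1:**
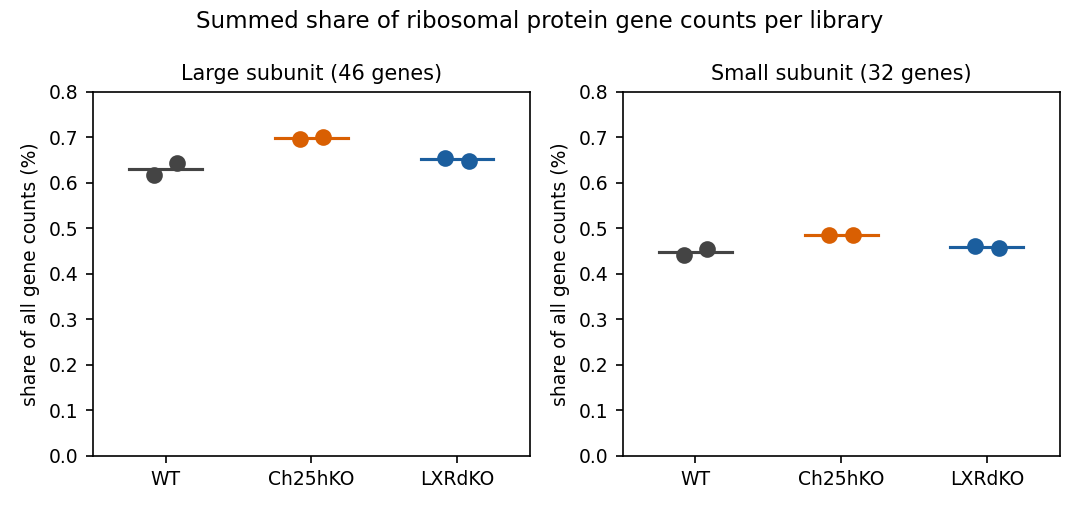
Share of all gene counts (%, y axis from 0) taken by the large subunit genes (left) and the small subunit genes (right) in WT, Ch25hKO and LXRdKO; points are libraries and lines are means of 2 libraries. On these unscaled totals the Ch25hKO libraries are highest in both panels, at 0.697% and 0.7001% for the large subunit.

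Without Ch25h, most of the called ribosomal protein genes were higher, by little, and most of these calls were lost when transcript length was taken into account. In Ch25hKO against WT, 18 of 46 large subunit genes were called higher and 2 lower, and 10 of 32 small subunit genes were called higher and none lower, at an adjusted p under 0.05 in edgeR's quasi-likelihood test across all genes. Of all genes tested, 39.3% were called in this comparison, 19.8% higher and 19.5% lower. Of the 8141 genes with a mean of at least 5 CPM, 48.3% were called. The 30 called members, 38.5% of 78, are thus no larger a share than calls among all genes, and 28 of the 30 were higher. The median log2 fold change was 0.11 in the large and 0.09 in the small subunit, against 0.01 over all genes tested. Without the first Ch25hKO library the large subunit had 7 genes called higher, and without the second 5, and the small subunit had 4 without the second. In these fits 11.6% and 13.7% of all genes were called higher. With no scaling factor beyond the total count, the large subunit count was 31 higher and 1 lower. With the offset for transcript length described below, 4 large and 1 small subunit genes were called higher, and 2 and 2 lower.

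Rpl18, Rpl37 and Rpl37a, core proteins of the large subunit, rose most among its genes after the rare Rpl39l. Rpl18 stood at 89.5 and 95.1 CPM in the WT libraries and at 111 and 115 in Ch25hKO. Rpl37 had 102 and 108 CPM in WT against 127 and 129.5, and Rpl37a 177 and 181 against 213 and 221. In each of the 3 genes both knockout libraries lay above both WT libraries. The log2 fold changes were 0.29 ± 0.05 (SE), 0.29 ± 0.05 and 0.28 ± 0.05, with edgeR adjusted p of 0.000294, 0.00025 and 0.000274. In the small subunit Rps27l, a p53-inducible relative of Rps27, rose from 19.5 and 20.3 CPM to 24.7 and 24.3, a log2 fold change of 0.30 ± 0.07. Rps13, which binds the central domain of 18S ribosomal RNA, rose by 0.25 ± 0.05 and had 102 and 106 CPM in WT against 123 and 122 in Ch25hKO. Of the 28 increases, those of Rpl18, Rpl37 and Rpl37a passed the threshold under every alternative run, leaving aside Rpl39l. That of Rps4y2 passed under every alternative that tested it. The length offset gave this gene, which has no annotated length, the median length of other genes, and the 5 CPM filter left it out. Rps27l and Rps13 lost their calls with the length offset.

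The 2 genes that fell in Ch25hKO were Rplp0, the base of the stalk that recruits elongation factors, and Rpl3, which lies at the peptidyl transferase centre. Rplp0 had 227 and 208 CPM in WT and 186 and 194 in Ch25hKO, a log2 fold change of -0.20 ± 0.05 (edgeR adjusted p = 0.00821). Rpl3 had 164 and 145 against 137 and 138 CPM, a change of -0.17 ± 0.06 with an adjusted p of 0.025 that was lost with no scaling factor, in a fit of only the compared libraries and when any 1 library other than the second WT library was left out. Both WT libraries lay above both Ch25hKO libraries in each gene. The other stalk proteins, Rplp1 and Rplp2, did not follow Rplp0: Rplp1 had a log2 fold change of 0.00 ± 0.05 and did not pass the test, and Rplp2 rose by 0.18 ± 0.05. The call of Rplp0 was lost without the first Ch25hKO library, and that of Rplp2 without either Ch25hKO library and with an offset for transcript length.

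The 2 rarest members are relatives of abundant ones. Each WT library held 1 count of Rpl39l, the Ch25hKO libraries held 9 and 26, and the LXRdKO libraries 12 and 16. It reached the threshold of 60 only through the knockout libraries, so its increase over WT, which is among the calls counted above, follows from the selection and supports nothing. The gene stayed under 1 CPM in every library, far below Rpl39 itself, whose level was 137 and 133 CPM in WT and 145 and 148 in Ch25hKO. Rps4y2, a relative of Rps4x annotated as Rps4l on chromosome 6, had 1.13 and 1.31 CPM in WT, 2.38 and 2.13 in Ch25hKO, against 1.55 and 1.27 in LXRdKO. It rose 1.85-fold in Ch25hKO (log2 fold change 0.89 ± 0.20, edgeR adjusted p = 0.00196), and both Ch25hKO libraries lay above the other 4. Rps4x, the main form, did not pass the test, at -0.04 ± 0.05. Because both are copies of more abundant genes, some of their reads may belong to those.

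Without both LXRs, ribosomal protein genes moved in both directions. In LXRdKO against WT, 18 of 46 large subunit genes were called higher and 6 lower, and 11 of 32 small subunit genes were called higher and 4 lower, where 31.8% of all genes tested were called, 16.4% higher and 15.5% lower. The 39 called members of 78 are a larger share than calls among all genes tested and than the 39.7% among genes of at least 5 CPM, and 29 of them were higher. By direction, 37.2% of members were called higher and 12.8% lower, beside 23.0% and 16.7% of genes of at least 5 CPM. The share called lower was thus no larger than among all genes. The WT libraries are those of the first comparison. The median log2 fold change was 0.11 in the large and 0.03 in the small subunit, against 0.00 over all genes tested. With the length offset described below the direction turned, to 5 higher and 11 lower in the large and 1 higher and 13 lower in the small subunit. With no scaling factor the large subunit split was 14 higher and 9 lower. The counts of higher calls fell to 10 and 5 without the first LXRdKO library, and to 9 and 4 without the second, while the share of all genes called higher fell to 10.0% and 10.2%. The small subunit count of 11 was 6 without the first Ch25hKO library, which enters only through the shared spread and scaling.

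Leaving out the rare Rpl39l, the largest decreases exceeded the largest increases. Rpl22l1 (chr3:28805436-28807424, GRCm38), a relative of Rpl22 known for its role in blood cell development, had 27.999 and 27.7 CPM in the WT libraries, 28.8 and 29.1 in Ch25hKO, against 18.5 and 17.8 in LXRdKO, 1.53-fold lower than WT. Rpl3 (chr15:80077791-80091868) had 164 and 145 CPM in WT against 102 and 105 in LXRdKO, 1.49-fold lower. In these genes both LXRdKO libraries lay below all 4 others. The log2 fold changes were -0.62 ± 0.06 (edgeR adjusted p = 8.53e-07) and -0.58 ± 0.06 (6.39e-07). Rpl22 itself, the abundant relative of Rpl22l1, did not pass the test, at 60.9 and 59.8 CPM in WT and 65.2 and 65.1 in LXRdKO and a log2 fold change of 0.11 ± 0.05.

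Rpl13a (chr7:45125558-45128761), which also silences inflammatory mRNAs after interferon as part of the GAIT complex, had 70.9 and 67.3 CPM in WT, 70.5 and 75.6 in Ch25hKO, against 52.3 and 51.5 in LXRdKO. Its log2 fold change in LXRdKO was -0.41 ± 0.06, with an edgeR adjusted p of 2.08e-05. Again the LXRdKO libraries were the lowest 2 of the 6.

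The other called decreases were smaller. Rpl5, which with Rpl11 and 5S ribosomal RNA forms the particle that binds MDM2 when ribosome assembly fails, fell from 225 and 210.0 CPM to 181 and 180.2, a log2 fold change of -0.27 ± 0.05. Its partner went the other way: Rpl11 rose from 158 and 159 to 187 and 179 CPM, by 0.20 ± 0.05. Rpsa, also known as a laminin receptor, fell by 0.26 on the log2 scale, from 103 and 98.1 to 83.7 and 84.5 CPM. Rps3, which guards the mRNA entry channel and also binds NF-κB, fell from 216 and 203 to 184 and 181 CPM, by 0.20. Rps12 had a change of -0.23, Rpl12, of the stalk base, of -0.21 and Rpl4 of -0.19; Rpl12 and Rpl4 were named after their values were seen. The call of Rps3 was lost without the second LXRdKO library, and that of Rpl11 without the first and with the length offset. Of the decreases named here, those of Rpl22l1, Rpl3, Rpl13a, Rpl5, Rpsa and Rps12 passed the threshold under every alternative of scaling, test, filter, block, left-out library and length offset that was run.

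**Figure D2:**
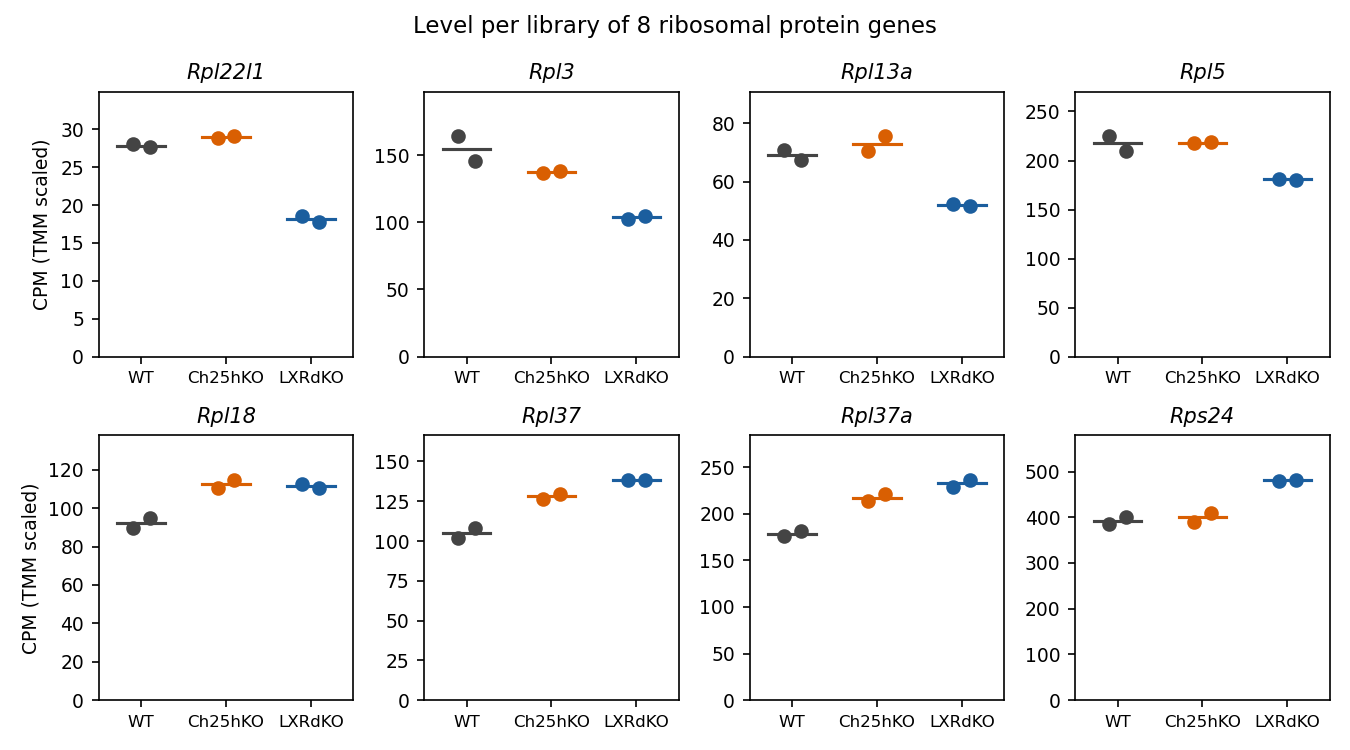
Level per library (CPM on TMM-scaled library sizes, y axes from 0) of 8 ribosomal protein genes in WT, Ch25hKO and LXRdKO; points are libraries and lines are means of 2. In the upper row, Rpl22l1, Rpl3, Rpl13a and Rpl5 are lowest in the LXRdKO libraries, and in the lower row both LXRdKO libraries lie above both WT libraries.

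Among the increases in LXRdKO, Rpl37, Rpl37a and Rpl36 were the largest of the large subunit after the rare Rpl39l. Rpl37 rose from 102 and 108 CPM in WT to 139 and 138, a log2 fold change of 0.40 ± 0.05 (edgeR adjusted p = 1.19e-05). Rpl37a had 229 and 237 CPM in LXRdKO, a change of 0.38 ± 0.05, and Rpl36 40.4 and 42.2 CPM in WT against 51.3 and 53.8, a change of 0.35 ± 0.06. In the small subunit Rps29, a zinc finger protein, rose by 0.29 ± 0.06, Rps24 by 0.29 ± 0.05 and Rps13 by 0.26 ± 0.05. Rps24, whose gene is mutated in some patients with Diamond-Blackfan anaemia, had 385 and 401 CPM in WT, 390.1 and 409.6 in Ch25hKO, against 479 and 482 in LXRdKO, so that the LXRdKO libraries stood above all others. Of the 29 increases, those of Rpl36, Rpl37, Rpl37a and Rps24 passed the threshold under every alternative run, leaving aside Rpl39l. Also called higher were Rpl10 at 0.18 ± 0.05, Rpl7a at 0.22 ± 0.05, Rpl24 at 0.22 ± 0.05 and Rplp1 at 0.14 ± 0.05. With the length offset described below, the calls of these 4 and of Rps29 and Rps13 were lost and the value of Rplp1 turned to -0.01. The calls of Rpl10 and Rplp1 were also lost without the first WT library or either LXRdKO library, and that of Rpl24 without the second LXRdKO library. Rplp1 further lost its call without either Ch25hKO library and under most other scalings. Not passing were Rplp0 at -0.13, Rplp2 at 0.12, Rpl7 at 0.09, Rpl7l1 at 0.11, Rpl39 at 0.08, Rps4x at -0.06, Rps27l at 0.17, Rps6, the substrate of the S6 kinases, at -0.08, and Rps19, the gene most often mutated in Diamond-Blackfan anaemia, at -0.06.

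**Figure D3:**
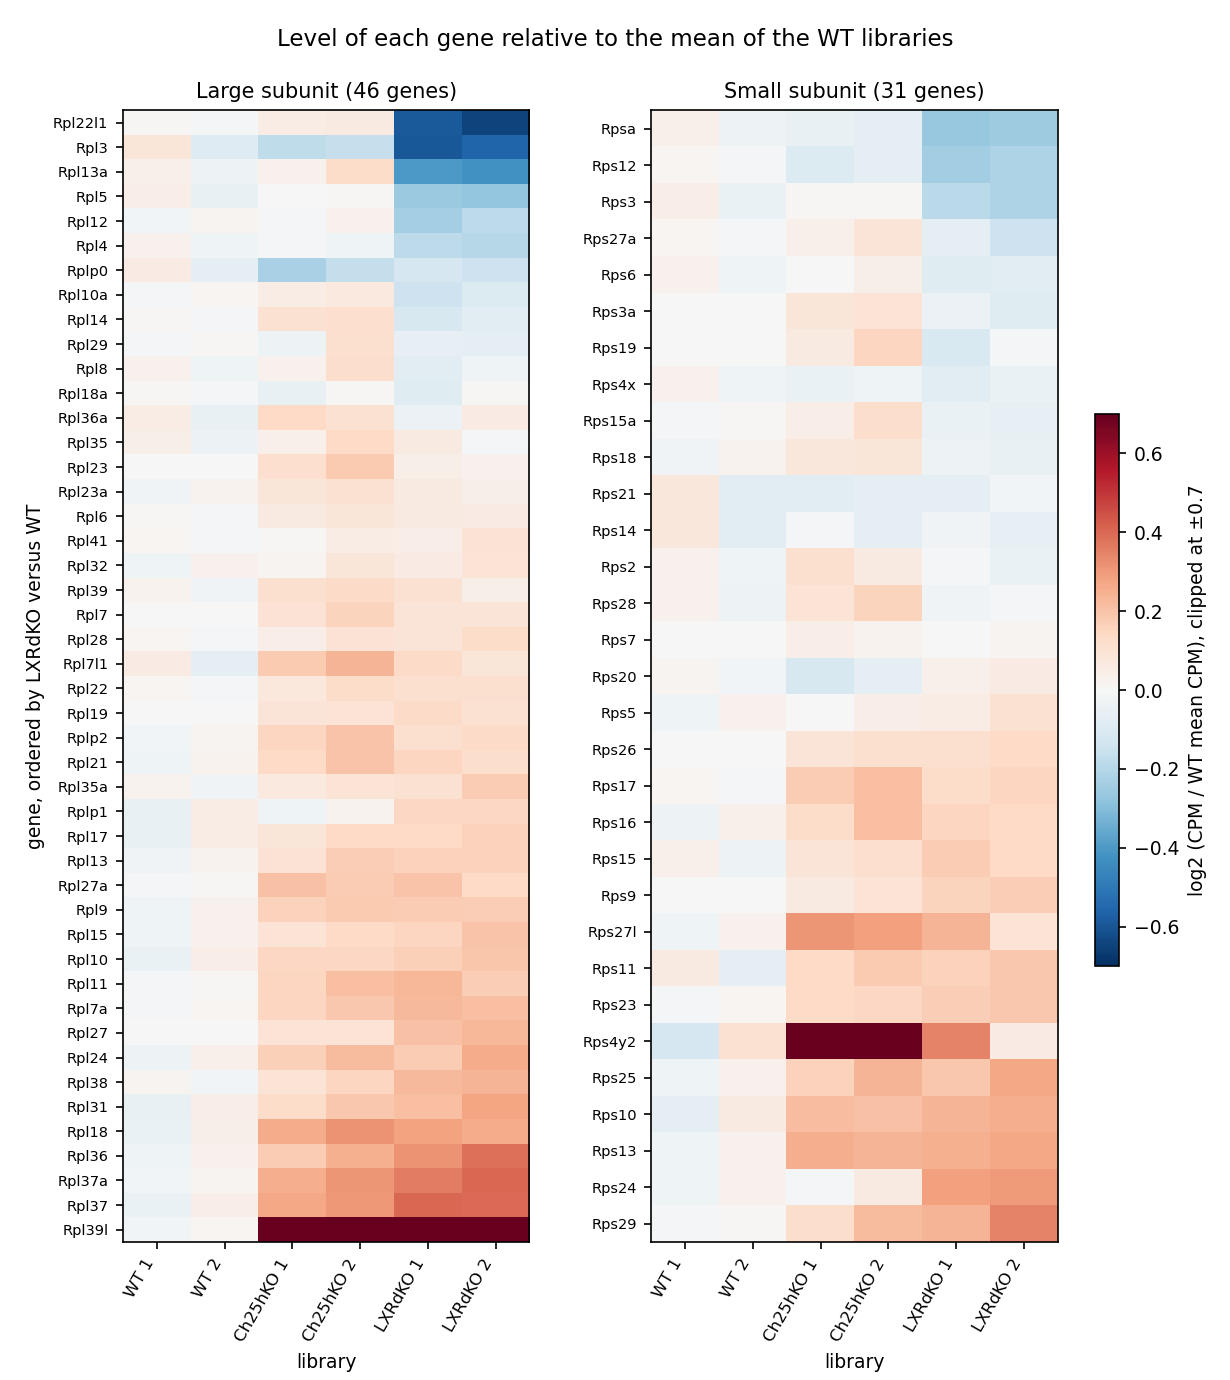
Level of 77 of the 78 genes in each of the 6 libraries relative to the mean of the WT libraries (log2 of the CPM ratio, colour clipped at ±0.7), large subunit left and small subunit right, ordered by the LXRdKO fold change. The top rows, from Rpl22l1 to Rpl4 and from Rpsa to Rps3, are low in the LXRdKO columns, and most lower rows are above WT in both knockouts.

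Set against each other, the knockouts differed in 21 members, 18 of which were lower in LXRdKO. In LXRdKO against Ch25hKO, 1 large subunit gene was called higher and 8 lower, and 2 small subunit genes were called higher and 10 lower, where 37.9% of all genes tested were called, 19.3% higher and 18.6% lower. The 21 called members, 26.9% of 78, are a smaller share than calls among all genes tested and than the 48.1% among genes of at least 5 CPM. By direction, 23.1% of members were called lower and 3.85% higher, beside 22.2% and 25.8% of genes of at least 5 CPM. The share called lower was thus near that of genes of at least 5 CPM, and the share called higher was below it. The medians were -0.01 in the large and -0.02 in the small subunit, against -0.01 over all genes tested. With no scaling factor, which lowered the median of all genes to -0.09, the calls were none higher and 15 lower in the large subunit and 1 higher and 15 lower in the small subunit.

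The lowest of the large subunit were Rpl22l1, with a log2 fold change of -0.67 ± 0.06 (edgeR adjusted p = 1.46e-07), Rpl13a with -0.49 ± 0.06 (1.47e-06) and Rpl3 with -0.41 ± 0.06 (2.00e-05). In the small subunit Rps4y2 was lower with -0.68 ± 0.20 (0.0108) and Rps3 with -0.21 ± 0.05 (0.0032). Rps19 was lower in LXRdKO than in Ch25hKO, by 0.17 on the log2 scale, with 59.6 and 63.2 CPM in Ch25hKO and 52.9 and 56.4 in LXRdKO, although neither knockout passed the test against WT for this gene. Higher in LXRdKO were Rps24 with 0.27 ± 0.05, Rplp1 with 0.15 ± 0.05 and Rps20 with 0.14 ± 0.05. Rpl18, Rpl37 and Rpl37a, raised in each knockout against WT, did not pass the test between the knockouts, at -0.02 ± 0.05, 0.11 ± 0.05 and 0.10 ± 0.05. Among calls that passed under every alternative run were those of Rpl22l1, Rpl13a, Rpl3, Rpl5 and Rpl14, lower, and Rps24, higher. The calls of Rplp1 and Rps20 were lost without any 1 of the Ch25hKO and LXRdKO libraries, and with a replicate block, that of Rps3 without the second LXRdKO library, and those of Rps4y2 and Rps19 with DESeq2. Rps4y2 also lost its call without the first Ch25hKO or the second LXRdKO library, and Rps19 without the second Ch25hKO or the first LXRdKO library. Without the first LXRdKO library 5 large subunit genes were called lower. The small subunit count of 10 lower was 3 or 4 without any 1 of the Ch25hKO and LXRdKO libraries, and 5 with DESeq2.

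Most genes that fell in LXRdKO hold genes of small nucleolar RNAs. In the GENCODE M21 annotation (GRCm38), 29 of the 78 members hold at least 1 snoRNA gene on their own strand, 19 in the large and 10 in the small subunit. Of the 10 members called lower in LXRdKO against WT, 9 hold one and Rpl22l1 holds none. Among the 29 members that hold a snoRNA gene 9 were called higher and 9 lower, and among the 49 that hold none 20 were called higher and 1 lower. This split was looked at after the fold changes were seen, so it is a description with no test. In Ch25hKO against WT the counts were 11 higher and 1 lower of 29, and 17 higher and 1 lower of 49. Outside the ribosomal proteins, 147 genes of at least 5 CPM hold a snoRNA gene, of which 28 were called higher and 24 lower in LXRdKO. These are 19.0% and 16.3%, beside 23.0% and 16.7% of all genes of at least 5 CPM. Gas5, a non-coding snoRNA host with a TOP tract, had a log2 fold change of -0.92 ± 0.07 in LXRdKO, and the translation elongation factor gene Eef2 of -0.33 ± 0.06. Gas5 and Eef2 were named outside the naming rule and do not stand for the 147. With the length offset described below the split did not hold, at 1 higher and 10 lower of 29 and 5 higher and 14 lower of 49.

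A snoRNA of the box C/D class is shown for 3 of the fallen genes to make the feature visible, 5′ to 3′ as the annotation's transcript with GRCm38 positions; capitals mark box C (TGATGA) and the last box D (CTGA), between which the guide lies.
Snord33 in Rpl13a, chr7:45126864-45126947, minus strand: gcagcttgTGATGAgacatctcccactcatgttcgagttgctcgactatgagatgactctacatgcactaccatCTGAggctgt
Snord21 in Rpl5, chr5:107904555-107904648, plus strand: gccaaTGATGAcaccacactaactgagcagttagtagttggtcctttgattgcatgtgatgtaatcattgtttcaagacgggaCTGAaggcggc
Snord100 in Rps12, chr10:23785750-23785823, minus strand: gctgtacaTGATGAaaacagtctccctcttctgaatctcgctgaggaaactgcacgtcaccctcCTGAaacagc
Of the 57 snoRNA genes annotated in members, 32 had a row in the count table, and the most counted, Snora70 in Rpl10, had 200 counts over the 6 libraries. Snord33 had no count and Snord100 24 to 35 counts per library, so this assay measured the host mRNAs and gave almost no reading of the guides.

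**Figure D4:**
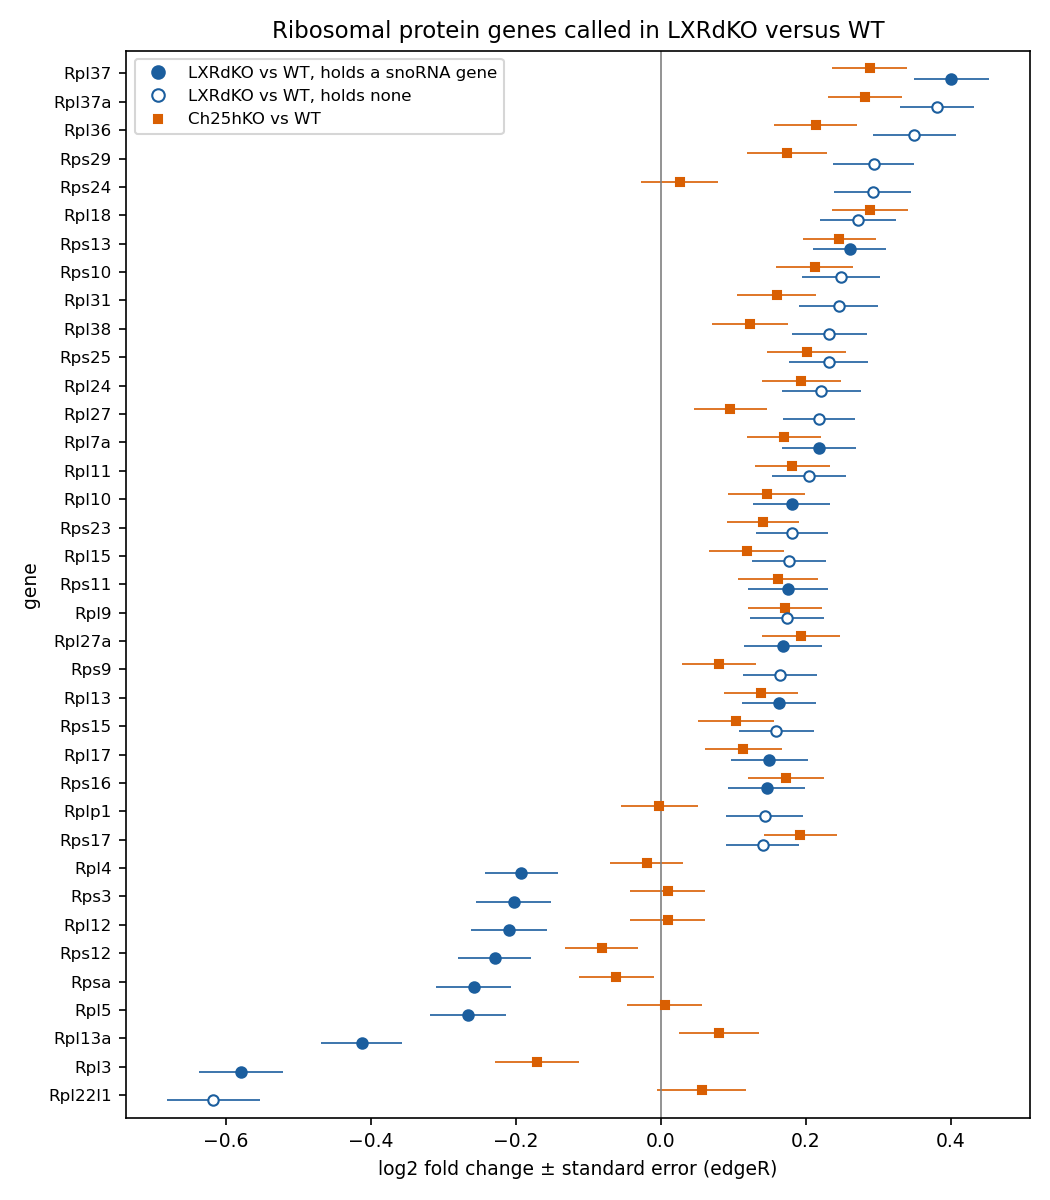
Log2 fold change with its standard error (edgeR, 2 libraries a group) of ribosomal protein genes called in LXRdKO against WT, without the rare Rpl39l, which is off the scale; circles are LXRdKO against WT, filled where the gene holds a snoRNA gene, and squares are Ch25hKO against WT. The 9 genes at the bottom fell in LXRdKO, and 8 of them are filled circles.

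The members have short mRNAs, with a median transcript length of 774 nt in the large and 661 nt in the small subunit, and other short transcripts were shifted upward in both knockouts too. Among other genes of at least 5 CPM, the median log2 fold change against WT was 0.10 in Ch25hKO and 0.18 in LXRdKO for the 51 with transcripts under 500 nt, and 0.13 and 0.15 for the 208 from 500 to under 750 nt. It was 0.00 and 0.01 for the 4789 of 2500 nt or more. The members' medians were 0.12 and 0.14 under 500 nt (16 genes) and 0.10 and 0.10 from 500 to under 750 nt (22 genes). From 1500 to under 2500 nt, the 5 members (Rpl4, Rpl5, Rps3, Rps24 and Rpsa) had a median of -0.20 in LXRdKO, where 1829 other genes had 0.04. Over the 77 members with a length, Spearman's rho between length and log2 fold change was -0.32 in Ch25hKO and -0.35 in LXRdKO against WT, and -0.25 between the knockouts. Over 7893 other genes it was -0.10, -0.10 and 0.00. All points of a correlation share the same libraries and genes are not independent, so these are descriptions. The length classes and correlations depend on the annotated transcript chosen for each gene, as the levels per kilobase do. The lengths used were 2045 nt for Rpl5, 1908 nt for Rps3, 1613 nt for Rps24, 1599 nt for Rpsa and 3706 nt for Rps20. Whether these transcripts are the main ones in these cells was not tested.

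When each library's trend over transcript length, fitted on genes that are no ribosomal protein genes, was taken out, fewer members were called higher in each knockout against WT and more were called lower in LXRdKO. In Ch25hKO against WT, 4 large subunit genes were then called higher and 2 lower, and 1 small subunit gene higher and 2 lower. In LXRdKO against WT, 5 were called higher and 11 lower in the large subunit, and 1 higher and 13 lower in the small subunit, with medians of 0.00 and -0.06. Of all genes in the same fit, 38.5% were called in Ch25hKO, 18.4% higher and 20.1% lower, and 31.5% in LXRdKO, 15.8% higher and 15.7% lower. Between the knockouts the counts were 0 higher and 9 lower, and 2 higher and 11 lower. Rpl18, Rpl37 and Rpl37a were still called higher in Ch25hKO, and Rpl22l1, Rpl3, Rpl13a, Rpl5, Rpsa and Rps12 lower in LXRdKO. This alternative was chosen after the data were seen, and the cause of the length trend was not tested. The offset of a gene also depends on the transcript chosen for its length. Calls kept or lost with the length offset therefore hold for the lengths used here only.

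**Figure D5:**
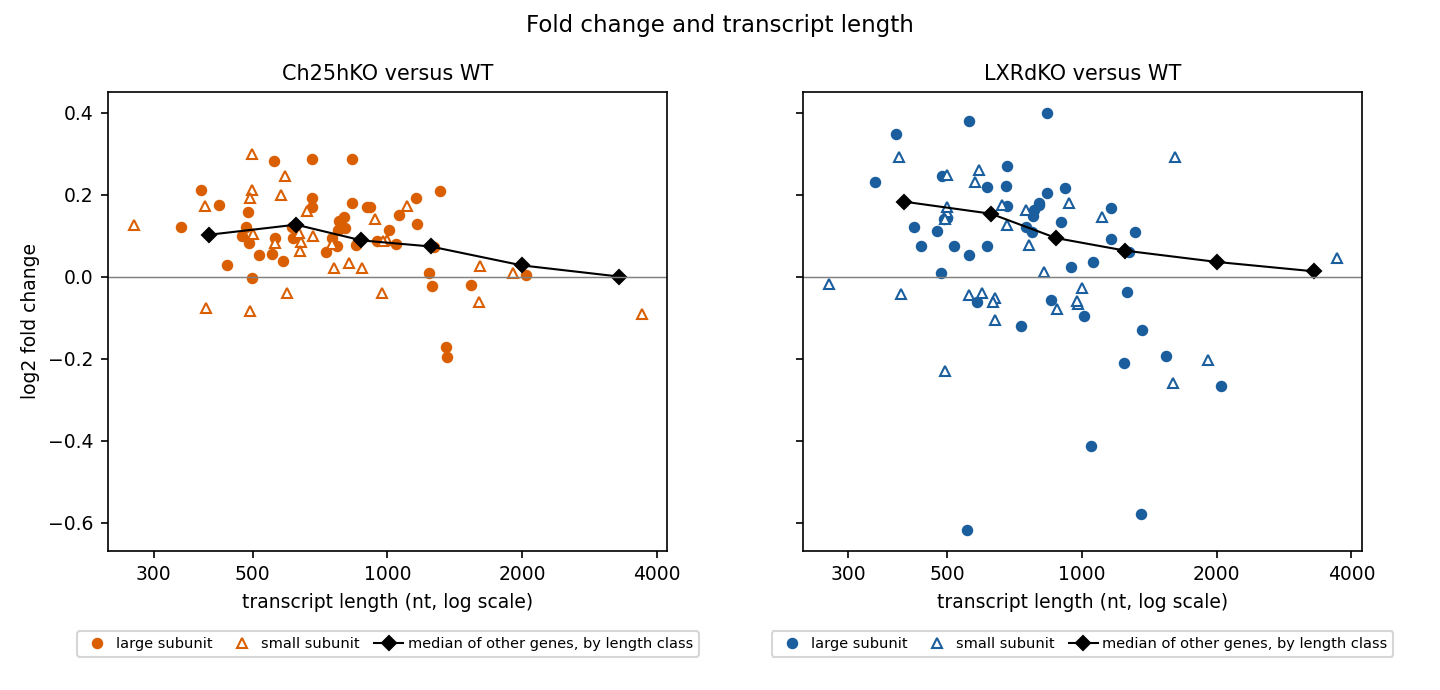
Log2 fold change against WT of ribosomal protein genes (filled circles large subunit, open triangles small subunit) over transcript length (nt, log scale) in Ch25hKO (left) and LXRdKO (right), with the median of other genes of at least 5 CPM in 6 length classes (black diamonds, drawn inside each class). The diamonds fall from 0.10 and 0.18 under 500 nt to 0.00 and 0.01 at 2500 nt or more; the rare Rpl39l is off the scale and Rps4y2 has no length.

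Promoter sequence was searched for letters shared by the members. RefSeq promoter windows (GRCm38.p6) of 250 bases before to 50 after the annotated start were matched for 58 of the 78 members. A run of at least 8 C or T between 50 bases before and 50 after the start, on the gene's strand, was found in 48 of the 58 (82.8%) against 39.2% of 17492 protein-coding genes. The TOP-like heptamer CTCTTTC in the same stretch was found in 11 (19.0%) against 1.53%. CCGGAAG, a site form of the ETS factors such as GABP, was found on either strand of the 300 bases in 24 (41.4%) against 12.9%. CTCTTTC consists of C and T only, so its matches can lie inside the runs of the first search. A match is a description and not a site.

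Windows are shown for 8 genes whose call against WT held under every alternative, 5 lower in LXRdKO and 3 higher in Ch25hKO, from 50 bases before to 25 after the annotated start, 5′ to 3′ on the gene's strand; capitals mark runs of at least 8 C or T and CCGGAAG on either strand. Called lower in LXRdKO against WT were the first 5.
Rpl22l1, chr3:28805458-28805532, plus strand: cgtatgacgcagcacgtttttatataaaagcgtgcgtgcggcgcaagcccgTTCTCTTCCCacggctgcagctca
Rpl13a, chr7:45128721-45128795, minus strand: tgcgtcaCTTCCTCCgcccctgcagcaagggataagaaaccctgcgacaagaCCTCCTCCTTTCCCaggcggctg
Rpl5, chr5:107900478-107900552, plus strand: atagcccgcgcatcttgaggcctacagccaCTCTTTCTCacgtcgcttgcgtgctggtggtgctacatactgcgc
Rpsa, chr9:120127716-120127790, plus strand: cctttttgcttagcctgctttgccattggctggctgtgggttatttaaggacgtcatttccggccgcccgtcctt
Rps12, chr10:23787185-23787259, minus strand: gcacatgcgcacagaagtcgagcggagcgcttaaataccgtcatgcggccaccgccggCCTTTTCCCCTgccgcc
Called higher in Ch25hKO against WT were the next 3.
Rpl18, chr7:45718021-45718095, plus strand: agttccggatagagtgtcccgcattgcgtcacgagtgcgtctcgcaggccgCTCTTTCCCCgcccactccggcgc
Rpl37, chr15:5116563-5116637, plus strand: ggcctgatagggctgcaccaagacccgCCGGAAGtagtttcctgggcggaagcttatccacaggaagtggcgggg
Rpl37a, chr1:72711210-72711284, plus strand: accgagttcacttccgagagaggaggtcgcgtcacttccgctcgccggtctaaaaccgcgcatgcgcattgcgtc
Runs of C and T at or just after the RefSeq start were seen in Rpl22l1, Rpl13a and Rps12, which fell in LXRdKO, and in Rpl18, which rose in Ch25hKO. The run of Rpl5 began 20 bases before the RefSeq start but after the GENCODE gene start (107900502). Rpsa, Rpl37 and Rpl37a had no run of 8 in these windows, and Rpl37 had a CCGGAAG. The GENCODE gene starts of Rpl37 (5116645) and Rpl37a (72711290) lie past the end of the windows shown. Those of Rpsa (120127689), Rpl22l1 (28805436), Rpl18 (45715457) and Rps12 (23787275, minus strand) lie upstream of their windows. An absent run in the windows of Rpsa, Rpl37 and Rpl37a therefore does not show that the mRNA lacks a TOP tract. For the same reason, the place of a run relative to the start holds for the RefSeq start only. Runs were thus seen both among genes that fell and among genes that rose.

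Most of the listed ribosome biogenesis genes were called higher in Ch25hKO. Of 48 ribosome biogenesis genes, 38 were called higher and 1 lower in Ch25hKO against WT, with a median log2 fold change of 0.49, 81.3% called against 39.3% of all genes tested. Nop58, a core protein of box C/D snoRNPs, rose by 1.05 ± 0.11 and Utp20, of the small subunit processome, by 1.03 ± 0.10, and Sbds, which releases eIF6 from the large subunit, had -0.17 ± 0.06. In LXRdKO against WT 6 were called higher and 2 lower, with a median of 0.10, and the called share of 16.7% lay below the 31.8% of all genes: Nop10, of H/ACA snoRNPs, rose by 0.84 ± 0.10 and Nop56 by 0.48 ± 0.07, while Ddx10 had -0.30 ± 0.07 and Heatr1 -0.24 ± 0.06. Between the knockouts 4 were called higher and 31 lower in LXRdKO, with a median of -0.38. The sums of the stromal, the neutrophil and the erythroid and megakaryocyte markers were also highest in Ch25hKO, and their part in this was not tested. Of the 2 tested erythroid and megakaryocyte markers, only 1 was called higher in Ch25hKO against WT.

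Genes for translation factors and ribosome-associated proteins were called about as often as genes of their level. Of 21 genes for translation factors and ribosome-associated proteins, most of them with TOP mRNAs, 7 were called higher and 2 lower in Ch25hKO against WT, among them Naca, of the nascent chain complex, at 0.37 ± 0.05 and the poly(A)-binding protein gene Pabpc1 at -0.22 ± 0.06. In LXRdKO 2 were called higher and 7 lower, with a median of -0.12: Eif3e, a subunit of the initiation factor eIF3, had -1.06 ± 0.07 and the histone chaperone gene Nap1l1 -0.52 ± 0.06, while Btf3 rose by 0.23 ± 0.05 and Fau, which encodes a small subunit protein outside the symbol rule, by 0.18 ± 0.05. The called share was 42.9% in each, beside 48.3% and 39.7% of genes of at least 5 CPM. Between the knockouts none was called higher and 10 lower, 47.6% of the list, where 48.1% of genes of at least 5 CPM were called and 22.2% were lower. Of 20 tested regulators of ribosomal protein synthesis, 7 were called higher and 6 lower in Ch25hKO, 5 and 4 in LXRdKO against WT, and 3 and 4 between the knockouts. The called shares were 65%, 45% and 35%, beside 39.3%, 31.8% and 37.9% of all genes tested. Among genes of at least 5 CPM, the level of most of these regulators, 48.3%, 39.7% and 48.1% were called. Eif4ebp1, the translational repressor that mTOR switches off, rose by 0.60 ± 0.06 in Ch25hKO. Ddit4, an inhibitor of mTOR, had 0.27 ± 0.10 in Ch25hKO and -1.18 ± 0.12 in LXRdKO, and Mdm2, the p53 ligase bound by free Rpl5 and Rpl11, -0.46 ± 0.06 and -0.54 ± 0.06. Sesn1, an inhibitor of mTORC1 signalling, rose by 0.66 ± 0.12 and 0.65 ± 0.12 in the knockouts. Sesn2, of the same list, went the other way and was called lower in both, at -0.47 ± 0.10 and -0.56 ± 0.10.

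Genes of mitochondrial ribosomes were called about as often as all genes tested, but most of their calls against WT were higher. Of 76 mitochondrial ribosomal protein genes, 27 were called higher and 1 lower in Ch25hKO against WT (36.8% called, median 0.19), and 19 and 4 in LXRdKO (30.3%, median 0.12), beside 39.3% and 31.8% of all genes. Mrpl41 and Mrpl40 led in Ch25hKO at 0.68 and 0.62, and Mrpl36 and Mrpl17 in LXRdKO at 0.71 and 0.44. Of 76 tested nuclear-encoded subunits of oxidative phosphorylation, 23 were called higher and 3 lower in Ch25hKO (34.2%, median 0.10), and 29 and 5 in LXRdKO (44.7%, median 0.15). Of 24 cell cycle genes, 2 were called higher and 7 lower in Ch25hKO (37.5% called). In LXRdKO none was called higher and 13 lower (54.2%), with Top2a at -1.58. Beside these, the cytosolic ribosomal protein medians were 0.11 and 0.09 in Ch25hKO and 0.11 and 0.03 in LXRdKO, large and small subunit in turn, and the difference between the lists was not tested.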

How the data were processed

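RNA of M-CSF-grown, LPS-treated macrophages was amplified to cDNA before library construction and sequenced on an Illumina instrument, per the labels' protocols. The authors deposited 1 table of whole-number gene counts for the 6 libraries, made from reads aligned to mm10 with STAR 2.3.0 and counted with HTSeq, per the submitters' processing notes. Annotation, counting mode and strandedness: not given in the sources used here. Total counts lay between 41650513 and 45872964 per library, so counting error is small for all members except Rpl39l and Rps4y2. The members, gene lists and tests were chosen with earlier results of these data known.

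All genes were tested together in R 4.3.3 with edgeR 4.0.16 (filterByExpr, TMM scaling, robust quasi-likelihood fit over all 6 libraries with 3 residual degrees of freedom, Benjamini-Hochberg adjustment over 12923 genes, threshold 0.05). Of 23337 rows, 5683 had no count. The script was tested on simulated counts. Transcript lengths and snoRNA positions came from GENCODE M21 and promoter windows from RefSeq. The alternatives were other scalings (RLE, upper quartile, none, TMM without the ribosomal protein genes), DESeq2 1.42.0, limma-voom 3.58.1, other low-count filters, a fit of only the compared libraries, the replicate number as a block, each library left out, and, chosen after seeing the data, an offset for transcript length. Named were ribosomal proteins listed by role, the 3 highest and lowest in level per subunit, and the 3 largest called changes in each direction, comparison and subunit. Of other lists, the 2 largest called changes in each direction at 5 CPM or more could be named, and not all are printed. Values of 1 small subunit gene and of 1 marker are not reported here or drawn, though counts include them.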

Additional observations from a re-analysis of the deposited data

How the results depend on the processing

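Of 216 alternative values for the counts of called genes, 157 stayed within 1.5 times the value reported. Of 1949 for the members picked by the naming rule, subunit medians and summed shares, 1744 were judged the same. Members that the naming rule did not pick are not in this count. For a gene this meant the same side of the threshold and, where called, the same direction. For a median or share it meant a shift within the spread between libraries. With no scaling factor, the large and small subunit genes called higher in Ch25hKO against WT numbered 31 and 18 and the large ones called lower 1; between the knockouts the large subunit had 0 higher and 15 lower and the small subunit 1 higher. With the length offset, the genes called higher in Ch25hKO against WT numbered 4 and 1 and the small ones lower 2, the same with a replicate block added; in LXRdKO against WT they numbered 5 and 1 higher (4 and 1 with the block) and 11 and 13 lower (12 of the small subunit with the block). Between the knockouts 0 large subunit genes were higher with the length offset, with or without the block, and 1 small subunit gene with both. The value of Rplp1, LXRdKO versus WT, turned to -0.0123 with the length offset and -0.0119 with the block added. DESeq2 called 7 small subunit genes higher in LXRdKO against WT and 5 lower between the knockouts. A fit of only the compared libraries called 1 large subunit gene lower in Ch25hKO, 6 small ones higher in LXRdKO against WT, and 5 large ones higher between the knockouts. With no low-count filter 1 small subunit gene was higher between the knockouts. The cause of these shifts was not tested.

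The libraries of different groups share only a number: the correlation of same-numbered libraries' deviations over 8141 genes was -0.31 for WT and Ch25hKO, -0.06 for WT and LXRdKO and 0.11 for the knockouts. With the replicate block the calls in Ch25hKO against WT were 15 higher and 2 lower in the large subunit and 9 higher in the small, those in LXRdKO against WT 16 and 6, and 9 and 4, and those between the knockouts 0 and 8, and 1 and 8.

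With each library left out in turn, large subunit genes called higher in Ch25hKO ranged from 5 to 18 and lower from 0 to 2, and small subunit genes higher from 4 to 11 and lower from 0 to 2, with 2 only without the second WT library. In LXRdKO against WT, large subunit genes called higher ranged from 9 to 19 and lower from 4 to 7, and small ones higher from 4 to 10 and lower from 3 to 4. Between the knockouts, large ones called higher ranged from 0 to 5, with 5 without either WT library, and lower from 5 to 10, and small ones higher from 1 to 3 and lower from 3 to 12. A group left with 1 library was assumed to vary like the others. Leaving Rn45s or the 10 most abundant genes out of the unscaled total kept the Ch25hKO share highest in both subunits. Without Rn45s the large subunit share was 0.707% ± 0.0023 (SD, n = 2) in Ch25hKO against 0.639% ± 0.019 in WT. Depth limits only Rpl39l and Rps4y2.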

Other observations

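Relatives that the symbol rule leaves out were measured as well. Rpl36al, a near-identical relative of Rpl36a that encodes a large subunit protein, rose in Ch25hKO against WT by 0.25 ± 0.06 on the log2 scale (edgeR adjusted p = 0.00186) and had 0.12 ± 0.06 in LXRdKO against WT, which did not pass. Of the kinases that phosphorylate ribosomal protein S6 or related targets, Rps6kb1, the S6 kinase downstream of mTORC1, rose by 0.38 ± 0.07 in Ch25hKO, and Rps6ka5, a stress-activated nuclear kinase, rose by 0.67 ± 0.13 in Ch25hKO and 0.99 ± 0.13 in LXRdKO. Rps6kb2 did not pass in either, at -0.10 ± 0.08 and -0.07 ± 0.08.

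Rows annotated as processed copies were few and low. Rps15a-ps6 had 352 to 427 counts per library and Rps15a-ps4 67 to 89, and neither passed the test in either knockout against WT.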
